A study of Mus musculus with 6 samples.

Results

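A set of 6 long noncoding RNA genes, ENSMUSG00000098178, Malat1, Neat1, Gas5, Kcnq1ot1 and Miat, was followed in cultured cardiac fibroblasts (CFs), the stromal cells that make most of the matrix of the heart. The genes were taken by name from the deposited table, where ENSMUSG00000098178 has no symbol and was found by its Ensembl identifier. All 6 were among the 19446 genes of the table, and all 6 passed the filter for testing, a minimum of 10 reads in 2 or more libraries, which left 15948 genes. The set had been proposed with the levels of these genes in these libraries in view, so the levels are a description and carry no test. RNA-seq had been performed on 3 wild type (WT) and 3 CharmeKO cultures from 5-week-old C57BL/6J mice. In CharmeKO animals a polyadenylation signal sits in the locus of Charme, a long noncoding RNA of muscle cells. Cells of both groups had grown out of pieces of atrial tissue on fibronectin, in IMDM with 20% serum. For such cultures the study's methods name 6 littermates, in an age range around the 5 weeks of the titles. No source used here ties a library to 1 animal or gives the sex of the donors. RNA was selected on poly(A) beads and sequenced with strand.

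Malat1 and Neat1 are neighbouring nuclear RNAs. Malat1 gathers in nuclear speckles, which store splicing factors, and Neat1 is the scaffold of paraspeckles, nuclear bodies built around its long isoform. Kcnq1ot1 is transcribed from the paternal allele, antisense to Kcnq1, and silences neighbouring genes of an imprinted domain. Gas5 is the host of small nucleolar RNAs (snoRNAs), and its spliced RNA is degraded by nonsense-mediated decay during translation. Miat was described as a transcript linked to myocardial infarction and is best known from neurons. ENSMUSG00000098178, named Gm42418 in GENCODE, lies in a ribosomal RNA repeat fragment.

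The name of the set, abundant nuclear long noncoding RNAs, was met in part. By mean normalised reads ENSMUSG00000098178 ranked 5 and Malat1 26 among 19446 genes, whereas Neat1 ranked 937, Gas5 3536, Kcnq1ot1 9021 and Miat 16281. Location in the nucleus was not measured, since the RNA came from whole cells. The annotation of ENSMUSG00000098178 also went against its class. It is a single exon of 1831 bases on the plus strand, chr17:39846958-39848788 (GRCm38), annotated as a long intergenic RNA. An entry that GENCODE classes as rRNA, CT010467.1, covers all 1831 bases on the opposite strand. The RefSeq entry Rn18s-rs5, an 18S ribosomal RNA-related pseudogene, overlaps 1245 of those bases. Which strand of this stretch reads as mature rRNA was not tested.

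The sequences of the transcripts bear on what was counted. In GENCODE M21, bases 1 to 1244 of the ENSMUSG00000098178 transcript, 67.9% of its length, were found as runs of 25 or more bases in the reverse complement of the first CT010467.1 transcript. The boundary is shown from base 1185 to base 1304 (chr17:39848142-39848261, plus strand), with the part shared with the reversed rRNA entry in capitals.
Gm42418: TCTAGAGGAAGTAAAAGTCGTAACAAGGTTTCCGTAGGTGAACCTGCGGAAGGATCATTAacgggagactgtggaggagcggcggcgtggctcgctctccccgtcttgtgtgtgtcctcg
The longest run of A in this transcript was 6 bases, and 52.3% of the 21192 GENCODE transcripts of 1500 to 2500 bases held a run at least as long. Malat1 is shown because its 3′ end is made without an ordinary poly(A) tail: the transcript is cut in front of a tRNA-like RNA and keeps a stretch of A encoded in the genome. The stretch from base 6624 to base 6760 of its transcript (chr19:5795913-5796049, minus strand) has its longest run of A in capitals.
Malat1: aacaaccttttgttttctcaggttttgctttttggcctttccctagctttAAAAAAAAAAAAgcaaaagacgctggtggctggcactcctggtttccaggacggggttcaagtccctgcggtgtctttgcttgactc
The run is 12 bases long, and 6 bases separate it from the RefSeq entry of the tRNA-like RNA, Mascrna (chr19:5795924-5795981). A run of 12 or more was held by 18.6% of the 6335 GENCODE transcripts of 5000 to 10000 bases. The longest runs were 7 bases in Neat1, 5 in Gas5, 4 in Miat and 41 in Kcnq1ot1, taking the longest transcript of each. These runs describe the sequences, and their part in the capture on poly(A) beads was not tested.

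ENSMUSG00000098178 had the widest spread of the 5 members with reads in every library. Its normalised reads were 293999.8, 1091736 and 66208 in WT 1, 2 and 3, and 219865, 177275 and 101408 in CharmeKO 1, 2 and 3. WT 2 stood highest and WT 3 lowest, 16.5-fold apart, and the CharmeKO libraries lay between them. As a share of the reads of the library it took 0.692%, 2.67% and 0.157% in WT and 0.511%, 0.453% and 0.249% in CharmeKO. The mean share was 1.17% ± 1.32 (SD, n = 3) in WT and 0.404% ± 0.138 (SD, n = 3) in CharmeKO, a difference of -0.767 percentage points. Without WT 2 that difference was -0.0196 percentage points, so the contrast of the means came from 1 library.

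Malat1 was the steadier of the abundant members. Its normalised reads were 126059, 130985 and 92386 in WT and 76605, 168998 and 116434 in CharmeKO. The lowest and the highest library were both CharmeKO, 2.21-fold apart, and enclosed all WT values. Neat1 had 3922, 5014 and 6781 normalised reads in WT and 4659, 5160.4 and 21669.7 in CharmeKO. CharmeKO 3 stood alone, and the other 5 libraries lay between 3922 and 6781.

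Gas5 had 1691, 2778 and 3441 normalised reads in WT and 2193, 2711 and 2047 in CharmeKO, so that the CharmeKO values lay inside the WT range. Kcnq1ot1 had 394, 573 and 480.1 in WT and 201, 361 and 555 in CharmeKO, with the lowest value in CharmeKO 1 and overlapping groups. Miat was near the limit of detection. The WT libraries held 0, 6 and 13 recovered reads of it, the CharmeKO libraries 3, 0 and 14. WT 1 and CharmeKO 2, at 0, could still hold up to 3 reads, or 0.0695 and 0.0753 CPM (reads scaled to the library total).

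**Figure D1:**
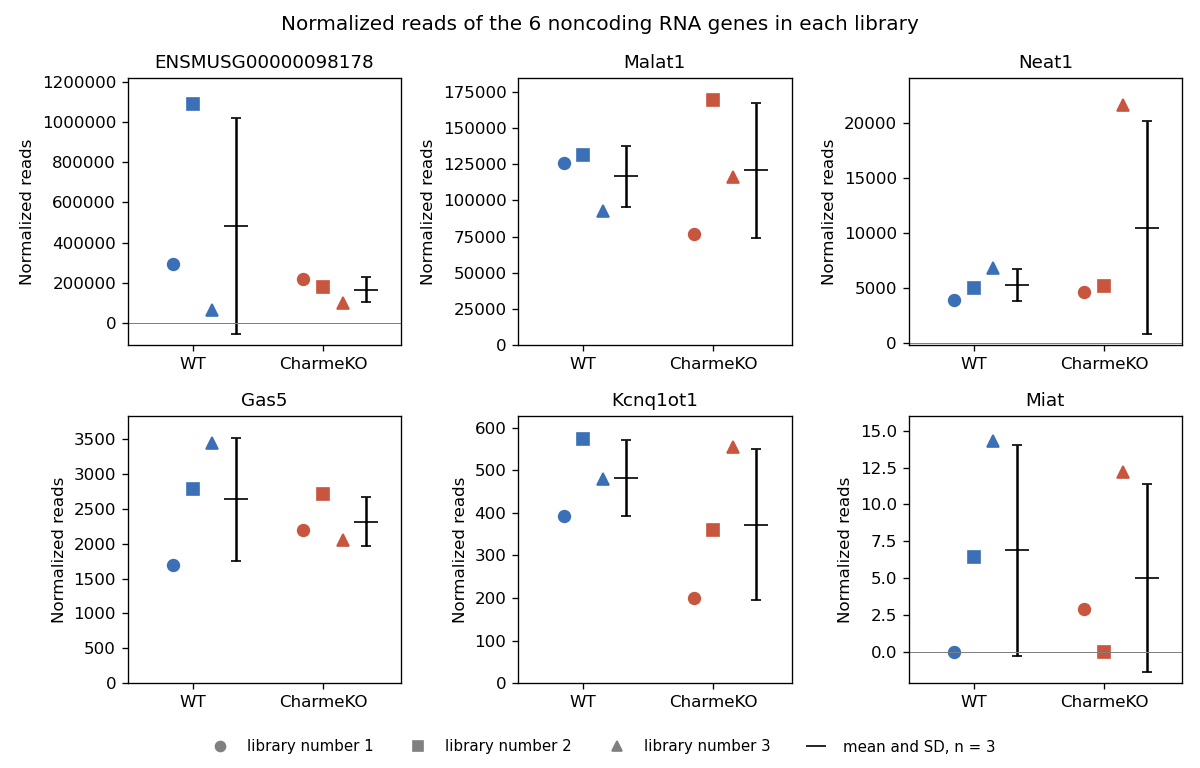
Normalised reads (y axis, linear, a separate scale per gene) of the 6 genes in WT (blue) and CharmeKO (red) libraries, with the marker giving the library number and the black bar the mean and SD of 3 libraries. ENSMUSG00000098178 is highest in WT 2 (1091736) and Neat1 in CharmeKO 3 (21669.7), and the groups overlap in all 6 panels.

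Levels were compared between genes per kilobase of exon, since the exons of the members span 1831 bases in ENSMUSG00000098178 and 93092 bases in Kcnq1ot1. The median over the 6 libraries was 108449 normalised reads per kilobase for ENSMUSG00000098178, 17363 for Malat1, 652 for Gas5, 245 for Neat1, 4.69 for Kcnq1ot1 and 0.5 for Miat. Gas5 and Neat1, neighbours in this order, overlapped in their ranges, while each other neighbouring pair did not. Neat1 thus had more reads than Gas5 in every library but a lower median per kilobase. The 20771 bases used for Neat1 are those of its long isoform, and reads of the short isoform, which shares its 5′ end, cannot be told apart from them in gene counts.

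Together the 6 genes took 0.4% to 3.01% of the reads of a library. They held 43% (WT 3) to 84.4% (WT 2) of all reads in the 1860 genes annotated as long noncoding. Without ENSMUSG00000098178 the other 5 took 0.195% to 0.453%, with both ends of that range in CharmeKO libraries.

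Loss of Charme was then asked of each member. The limma fit over the 15948 genes called 0 members, and 0 genes in all at an adjusted p under 0.05 (0% of those tested), while 143 genes (0.897%) had an unadjusted p under 0.05, none of them a member. edgeR's quasi-likelihood test gave 0 calls (0%) as well, and 158 genes (0.991%) fell under 0.05 before adjustment. DESeq2 called 8 genes (0.0502%) without the library number and 64 (0.401%) with it as a block, none of them a member, and 857 genes (5.37%) had an unadjusted p under 0.05 in limma with that block. Groups overlapped for all 6 members, against 4.11% of tested genes whose groups did not overlap. On the scale of log2(value + 1), CharmeKO minus WT was -0.81 ± 1.02 (SE, n = 3 against 3) for ENSMUSG00000098178, -0.01 ± 0.411 for Malat1, 0.66 ± 0.602 for Neat1, -0.14 ± 0.287 for Gas5, -0.48 ± 0.4 for Kcnq1ot1 and -0.38 ± 1.37 for Miat. The limma adjusted p was 0.9999 for each. In edgeR and DESeq2, fitted on recovered reads, the log2 fold change was -1.55 in both for ENSMUSG00000098178, and 1.01 and 1 for Neat1.

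The intervals show how much change these libraries leave room for. The 95% interval of the log2 fold change was narrowest for Gas5, from -0.82 to 0.55. It ran from -0.99 to 0.98 for Malat1, from -1.43 to 0.48 for Kcnq1ot1, from -0.79 to 2.1 for Neat1, from -3.26 to 1.64 for ENSMUSG00000098178 and from -3.66 to 2.9 for Miat. A failure to pass the test therefore does not show equal levels. Charme itself was checked through CUFF405, the only feature without an Ensembl identifier, taken by inference as the entry added for it. Its recovered reads were 5, 15 and 11 in the WT libraries against 0, 6 and 3 in the CharmeKO ones, and the groups overlapped.

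Same-numbered libraries were treated as pairs, and the differences within pairs did not run one way for most members. Neat1 was the only member higher in CharmeKO in all 3 pairs, by 0.25, 0.04 and 1.68 on the log2 scale, as were 16.4% of tested genes. ENSMUSG00000098178 differed by -0.42, -2.62 and 0.62, Malat1 by -0.72, 0.37 and 0.33, Miat by 1.96, -2.89 and -0.21, Gas5 by 0.37, -0.04 and -0.75, and Kcnq1ot1 by -0.97, -0.67 and 0.21. The library number accounted for 47.6% (Gas5) to 64.4% (Neat1) of the sum of squares of a member, and the genotype for 0.00615% (Malat1) to 21.7% (Kcnq1ot1). Over all tested genes the medians were 73.8% for the number and 5.91% for the genotype. The number has more degrees of freedom than the genotype and takes a larger share without any effect. The shares of number and genotype are therefore not directly comparable.

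**Figure D2:**
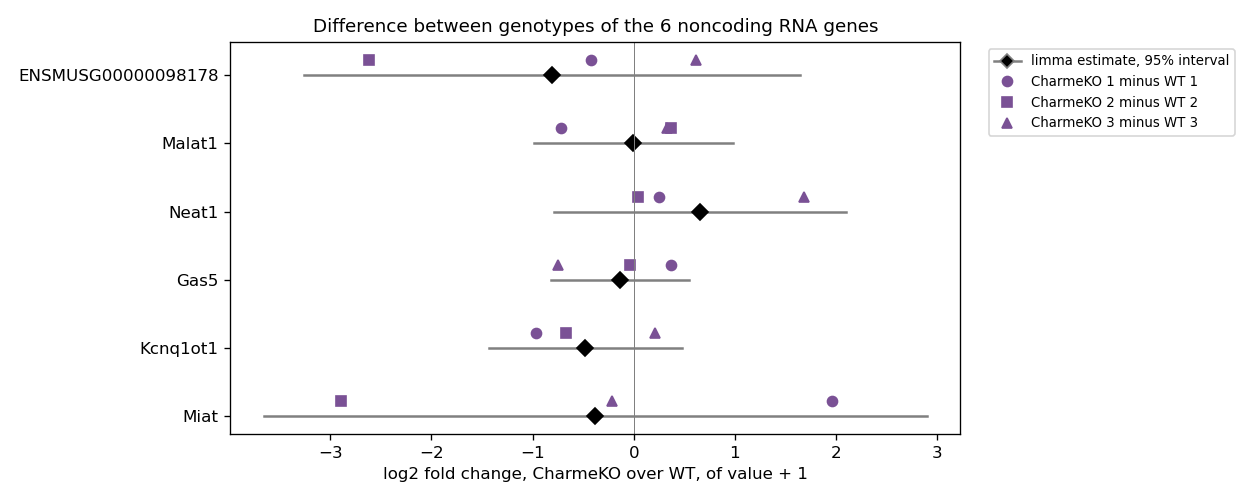
Log2 fold change of value + 1, CharmeKO over WT (x axis), for the 6 genes: black diamonds are limma estimates, grey lines their 95% intervals, and purple markers the differences between same-numbered libraries. All 6 intervals include 0, and Neat1 alone has its 3 pair differences above 0 (0.25, 0.04 and 1.68).

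WT 2, the library highest in ENSMUSG00000098178, was also highest in other transcripts. A list of 14 held transcripts of ribosomal repeats, mitochondrial rRNAs, other RNAs without an ordinary poly(A) tail, and Lars2. Of these 9 were in the table and 8 were tested, the member included, and 0 were called. All 8 had their highest value in WT 2. WT 3, lowest in the member, was also lowest in Lars2, Rn7sk, Rpph1 and Rmrp, but not in Gm26917, mt-Rnr1 or mt-Rnr2. All 8 had a lower mean in CharmeKO, with a median log2 fold change of -0.502 against 0.002 over all tested genes. The median was -1.374 in both edgeR and DESeq2, 0.307 in limma without WT 2 and -1.641 without WT 3. This list was written with the level of ENSMUSG00000098178 in WT 2 already known.

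Rmrp, the RNA of the RNase MRP complex that processes rRNA, had 111.3, 807.2 and 1.1 normalised reads in WT and 39.4, 119.9 and 13.9 in CharmeKO. Rpph1, the RNA of RNase P, had 110.3, 1435 and 16.5 in WT and 50, 239 and 25.2 in CharmeKO. Rn7sk, the 7SK RNA that restrains transcription elongation, had 32.5, 900.1 and 6.59 in WT and 46.1, 125 and 20 in CharmeKO. In these 3 RNAs WT 2 was highest, CharmeKO 2 second and WT 3 lowest. They are made by RNA polymerase III and lack poly(A) tails. The mitochondrial rRNAs spread less: mt-Rnr2 had 33616, 48158 and 24175 in WT and 30283, 27417 and 22288 in CharmeKO. Terc, the telomerase RNA, had at most 4.39 normalised reads and was not tested. Gm26917, a long intergenic RNA that ends 617 bases before ENSMUSG00000098178 on the same strand, had 9161, 14228 and 5664 in WT and 5230.2, 6052 and 8405 in CharmeKO, a 2.72-fold range. The entry on the opposite strand, CT010467.1, had 29.6 to 309.6 normalised reads, at most 0.0481% of the member's value in the same library. The strand of mature rRNA was not tested, so this low value need not be the level of rRNA.

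The 5 genes most like ENSMUSG00000098178 over the 6 libraries, among 11582 tested genes with a mean of at least 100 normalised reads, were Gm23935 (Pearson r = 0.997), Lars2 (0.994), Mir6236 (0.992), ENSMUSG00000089855 (0.991) and Oscp1 (0.986). These are the highest of many correlations over 6 libraries that share the outlying WT 2, and they carry no p. Without WT 2, r was 0.992 for Gm23935, 0.984 for Lars2 and 0.975 for Mir6236. Lars2, the mitochondrial leucyl-tRNA synthetase, had 37650.1, 135543 and 9492 normalised reads in WT and 35722, 27597 and 16917 in CharmeKO. ENSMUSG00000098178 was 5.99 to 8.05 times as high as Lars2 in every library, while the member ranged 16.5-fold and Lars2 14.3-fold. The 9 GENCODE transcripts of Lars2 shared 0 runs of 25 bases with the member on the same strand. Only annotated transcripts were compared. The rest of the Lars2 locus and of the rRNA repeat was not, so whether Lars2 reads come from rRNA was not tested.

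Gm23935 was 37.8% to 46.7% of the member's value in each library, and Mir6236 was 4.56% to 6.52%. Both are annotated as miRNA genes, of which Gm23935 has near-identical copies, so the copies are shown with the base that differs in capitals.
Gm23935: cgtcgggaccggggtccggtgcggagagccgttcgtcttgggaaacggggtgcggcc
Gm24187: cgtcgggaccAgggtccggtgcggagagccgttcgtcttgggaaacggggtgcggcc
Gm24270: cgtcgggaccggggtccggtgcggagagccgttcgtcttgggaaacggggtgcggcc
mmu-miR-6236: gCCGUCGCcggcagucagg
Gm23935 (chr16:11144125-11144181) and Gm24270 (chr9:56223715-56223771) are identical over 57 bases, and Gm24187 (chr13:9834469-9834525) carries G11A, counted from the 5′ end. The capitals of mmu-miR-6236, from RefSeq (GRCm38.p6, chr9:110281353-110281371), are its seed, bases 2 to 8. Reads of such copies can be assigned to either or be lost, so the level of each copy is uncertain. Gm24187 had 234 to 3868 and Gm24270 489 to 6221 normalised reads, each highest in WT 2 and lowest in WT 3. Whether poly(A) selection, leftover rRNA or the cells set these values was not tested.

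**Figure D3:**
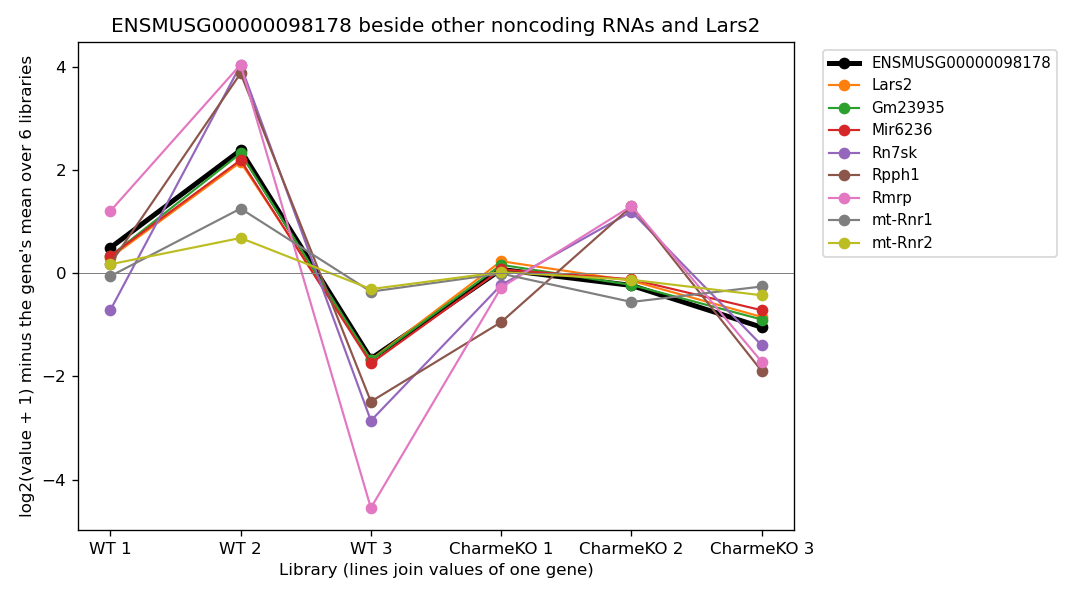
Log2(value + 1) of ENSMUSG00000098178 (thick black) and 8 other genes in each library, minus the mean of that gene over the 6 libraries (y axis, log2 units). All 9 genes peak in WT 2, where ENSMUSG00000098178 is 2.38 above its mean and Rmrp 4.04, and Lars2, Gm23935 and Mir6236 run along the black line.

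Genes for proteins that make or process rRNA were read beside the member. Of 27 listed genes of RNA polymerase I and rRNA processing, 27 were tested and 0 called, 20 were higher and 7 lower in CharmeKO, and the median log2 fold change was 0.067. Utp20, a component of the small subunit processome, had the only groups of the list that did not overlap, with 3480.3, 3403 and 3465 normalised reads in WT and 3149, 3072 and 3124 in CharmeKO (log2 fold change -0.15 ± 0.13, SE). Across all tested genes 1.98% were lower in CharmeKO without overlap.

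Malat1 and Neat1 lie 22036 bases apart on the minus strand of chromosome 19, at chr19:5795690-5802672 and chr19:5824708-5845478 (GRCm38). The log2 ratio of Malat1 to Neat1 was 5.01, 4.71 and 3.77 in WT 1, 2 and 3 and 4.04, 5.03 and 2.43 in CharmeKO 1, 2 and 3. Its mean was 4.49 ± 0.646 (SD, n = 3) in WT and 3.83 ± 1.32 (SD, n = 3) in CharmeKO. The difference of -0.661 was smaller than the range within either group (exact permutation test, two-sided, p = 0.7, where 0.1 is the smallest p that 3 against 3 libraries allow). Without CharmeKO 3 the difference was 0.0424, so its direction rested on that library. Over the 6 libraries Malat1 and Neat1 were correlated with r = -0.0325, which describes these libraries only.

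**Figure D4:**
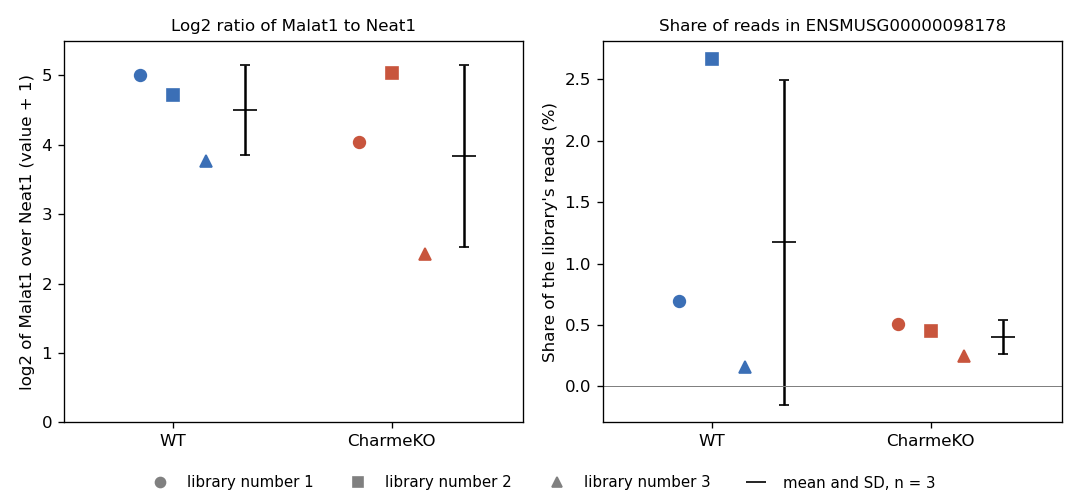
Left, log2 ratio of Malat1 to Neat1 (values + 1); right, share of the reads of each library in ENSMUSG00000098178 (percent), for WT (blue) and CharmeKO (red), with marker shape giving the library number and black bars the mean and SD of 3 libraries. The ratio is lowest in CharmeKO 3 (2.43) and the share highest in WT 2 (2.67%).

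Genes around the pair were also read. Of 17 tested genes of the neighbourhood, 0 were called, 10 were higher and 7 lower, with a median log2 fold change of 0.111. Dpf2, a subunit of BAF chromatin remodelling complexes, had 2201, 2359.6 and 2385 normalised reads in WT and 2477, 2688 and 2616 in CharmeKO (log2 fold change 0.16 ± 0.137, SE) and was the only one without overlap between groups, against 2.14% of tested genes that were higher without overlap. Frmd8os, which starts 145 bases from Neat1 on the opposite strand, had at most 5.22 normalised reads, and Gm37376, antisense within Malat1, at most 7.86.

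Genes of paraspeckle proteins were read beside Neat1. Of 23 tested genes, 0 were called, 15 were higher and 8 lower, with a median log2 fold change of 0.036. Sfpq, an essential paraspeckle protein, had 7054, 6889.9 and 8139 normalised reads in WT and 6035, 5871 and 9405 in CharmeKO. Nono, its partner, had 8831, 8478 and 9403 in WT and 8487, 8651 and 9453 in CharmeKO. Among the genes of the list with the lowest unadjusted p in limma were Rbmx (log2 fold change 0.28 ± 0.384, SE) and Rbm4b (0.3 ± 0.43). Nuclear speckle and SR proteins, the company of Malat1, gave 18 higher and 8 lower of 26 tested, 0 called, and a median of 0.082. Clk4, a kinase of SR proteins, led them with 0.36 ± 0.266 and was highest in CharmeKO 3 (1667 normalised reads, against 855 to 1439 in the others).

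The genes most like Neat1 were Ifnar1 (r = 0.993), Cmtr2 (0.989), Cwf19l1 (0.988), Traf3ip1 (0.987) and E130308A19Rik (0.983). Ifnar1, a subunit of the type I interferon receptor, had 3341 to 3641 normalised reads in WT and 3484, 3571 and 4878 in CharmeKO 1, 2 and 3. Those most like Malat1 were Krit1 (0.96), Abhd10 (0.952), Nup54 (0.951), Id1 (0.945) and Eda2r (0.935). Id1, an inhibitor of helix-loop-helix transcription factors, had 7358 normalised reads in CharmeKO 2, the library in which Malat1 was highest, and 3186 to 5149.5 in the others. Each r is the highest of 11582.

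Gas5 (chr1:161034422-161038539, plus strand, GRCm38) carries 10 annotated snoRNA entries on its own strand, of which 0 were in the table, and its value here counts all reads on its exons, whose union takes 3760 of the 4118 bases of the locus, so spliced and unspliced RNA cannot be told apart. Of 18 tested snoRNA host genes, 9 were higher and 9 lower, 0 were called, and the median log2 fold change was 0.008. Snhg12 had 209, 436 and 509 normalised reads in WT and 232, 324 and 166 in CharmeKO (log2 fold change -0.63 ± 0.432, SE). Snhg20 gave 0.44 ± 0.417 and Snhg6 -0.24 ± 0.227. In Gas5, as in Snhg12, WT 3 was the highest library, and CharmeKO 3 lay below WT 3.

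Factors of nonsense-mediated decay, which removes Gas5 RNA, gave 9 higher and 5 lower of 14 tested, 0 called, and a median of 0.014. Smg1, the kinase of the pathway, had 5389, 6423 and 6849 normalised reads in WT and 3563, 4502 and 8129 in CharmeKO. Smg5 gave -0.31 ± 0.305 and Smg6 -0.2 ± 0.25. Gas5 is known to build up in arrested cells, and 15 growth arrest and p53 target genes were read beside it: 12 were higher and 3 lower in CharmeKO, 0 were called, and the median was 0.203. Cdkn2a, which encodes inhibitors of the cell cycle, had 3359, 2079.9 and 3662 normalised reads in WT and 3835, 3715 and 4764 in CharmeKO (log2 fold change 0.47 ± 0.253, SE), the only gene of that list without overlap, against 2.14% of tested genes that were higher without overlap. Bbc3 gave 0.4 ± 0.216 and Gadd45a 0.48 ± 0.554. Of 30 cell cycle genes, 10 were higher and 20 lower, 0 were called, and the median was -0.072. E2f1 gave -0.25 ± 0.155, Cenpe -0.4 ± 0.627 and Mcm6 -0.16 ± 0.268. The genes most like Gas5 were ENSMUSG00000061654 (r = 0.978), Armcx1 (0.977), Zfp691 (0.977), Mxra8 (0.964) and Agap3 (0.951).

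Kcnq1ot1 (chr7:143203458-143296549, minus strand, GRCm38) is a single exon antisense within Kcnq1, and Kcnq1 is not in the table. Of 13 tested genes of its imprinted domain, itself included, 6 were higher and 7 lower, 0 were called, and the median log2 fold change was -0.02. Cdkn1c, a cell cycle inhibitor that Kcnq1ot1 silences on the paternal allele, had 17.7, 36.3 and 41.7 normalised reads in WT and 11.5, 101 and 57.4 in CharmeKO. Both were lowest in CharmeKO 1. Tnfrsf22 (log2 fold change -0.83 ± 0.586) and Tnfrsf23 (-0.68 ± 0.915), decoy receptors at the edge of the domain, were both lowest in CharmeKO 3. The genes most like Kcnq1ot1 were Rc3h1 (r = 0.99), Zfp800 (0.99), Zfp871 (0.989), Cep290 (0.988) and Atxn7 (0.986). Rc3h1, which encodes the RNA decay factor roquin, had 2605, 3219 and 2872 in WT and 1977, 2613 and 2977 in CharmeKO.

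Miat (chr5:112213228-112229395, minus strand, GRCm38) had too few reads for a pattern. The highest r over the libraries were those of Slc38a10 (0.965), Cep152 (0.963), Esyt1 (0.958), Klhl29 (0.957) and Cybc1 (0.956), and at 0 to 14 reads they are no finding. Its neighbour Tpst2, an enzyme that sulfates tyrosines, had 2016 to 4176 normalised reads.

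Other long noncoding RNAs served as company for the set. Of 30 tested, 12 were higher and 18 lower, 0 were called, and the median log2 fold change was -0.113. Xist, which coats the inactive X chromosome in female cells, had 9850.0, 11565 and 28789.8 normalised reads in WT and 2162, 7.86 and 8126 in CharmeKO (log2 fold change -4.79 ± 2.39, SE). Its groups did not overlap, against 1.98% of tested genes that were lower without overlap. Without CharmeKO 2, an alternative chosen after the values were seen, the log2 fold change was -1.83 ± 0.707. The sex of the donors is not given, so a difference in sex between cultures cannot be told apart from genotype in Xist. H19, an imprinted RNA of fetal tissues, was the 1 gene of this list that DESeq2 called when the library number was a block, with 5.91, 173 and 105 normalised reads in WT and 9.61, 2157 and 471 in CharmeKO. Rian (-1.29 ± 0.655) and Mirg (-1.37 ± 0.827), imprinted RNAs of one cluster, were lowest in CharmeKO 3, the library in which Neat1 was highest.

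The cells carried the markers of fibroblasts. All 15 fibroblast markers were in the table, with Col1a1, a collagen chain, at 394739 to 818672 normalised reads. Of 12 cardiomyocyte markers 5 were in the table, without Myh6 and Myh7. Among those 5, Tnnt2 had 57.1 to 757 normalised reads, Tnni3 12.8 to 97.3 and Actn2 at most 53.4. Summed normalised reads of 12 haematopoietic markers ran from 2011.5 to 8627.9 in WT and from 1041.1 (CharmeKO 3) to 18607.6 (CharmeKO 1) in CharmeKO, with Ptprc and Itgam at 0 in CharmeKO 3. Those of 12 smooth muscle and pericyte markers ran from 32781.6 to 248449.5 in WT and from 11498.6 to 133458.7 in CharmeKO. Acta2 and Tagln made up most of each sum, with 155862 and 63007 normalised reads in WT 3. The study stained for αSMA, the protein of Acta2, to follow conversion into myofibroblasts. All 12 markers were lower in CharmeKO, 9 of them in all 3 pairs, as were 14% of tested genes. Endothelial markers, 6 tested of 10 listed, summed to 74.8 to 390.3, and mesothelial and epicardial markers, 8 tested of 10 listed, to 2755.4 to 21185.2. WT 2, the library highest in ENSMUSG00000098178, had the highest fibroblast sum (2261170.4 against 1132592.9 to 1786664.0). Collagen chains made up most of it, with Col1a1 at 818672, Col1a2 at 701122 and Col3a1 at 514618. Pdgfra (10084), Postn (9945) and Ly6a (1681) also peaked in WT 2. Dcn, Lum, Pdgfrb, Vim, Ddr2, Tcf21, Thy1, Gsn and S100a4 did not. Vim had 85742 in WT 2 against 60556 to 206040.0 elsewhere, and S100a4 was lowest there (3.2). In bulk RNA fewer cells of a type and less RNA per cell cannot be told apart, and the part of cell makeup in the members' values was not tested.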

How the data were processed

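RNA-seq libraries of cultured CFs (3 WT, 3 CharmeKO) were analysed, and group and number were taken from the titles. The authors aligned reads with STAR, counted them per gene on the reverse strand (Ensembl release 87 with Charme added; assembly named GRCm39, although that release annotates GRCm38 and the submitters' processing notes also list the human GRCh38; tool versions not given), removed genes with few reads and deposited reads divided by a DESeq2 size factor, a normalised signal. Dividing by the smallest value of each library gave whole reads for 100% of 116676 values (tolerance 1e-06), in total 38330019 to 46797446 per library. Floors of 3 reads cover counting error only. STAR counts only reads with 1 position, so reads of repeats can be lost.

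limma 3.58.1 (R 4.3.3) was fitted on log2(value + 1) with a trend and genotype over 15948 genes, two-sided, with Benjamini-Hochberg adjustment at 0.05. edgeR 4.0.16 and DESeq2 1.42.0 on recovered reads were alternatives. The fits were tested on simulated data. Same-numbered libraries deviated together (r = 0.762, 0.514 and 0.217, all over 0.1; between unlike numbers r was -0.643 to 0.222, the highest for WT 2 with CharmeKO 3), so the number was taken to pair them. Per the study's methods, its replicates are independent primary cell isolations. GENCODE M21 and RefSeq (GRCm38) gave annotation, lengths and sequences, 19373 genes matching by identifier; this may not be the authors' build, and no coordinates were converted. Genes were named by a rule: the 6 members, up to 3 genes per list with the lowest p, listed rRNA-related transcripts, neighbours, and the 5 genes most correlated with each member; Sfpq, Nono, H19 and the cell markers were added after values had been seen. Some genes that the rule names are not reported here. The members and lists were chosen with earlier results of these data known.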

Additional observations from a re-analysis of the deposited data

How the results depend on the processing

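DESeq2 called 8 genes in all, and 64 with the replicate number as a block, against 0 with limma; no member was called by any fit, and the block changed no member's call. In limma the replicate block left the number of calls at 0. Malat1 changed sign, around 0, with plain library totals (0.029), totals without ENSMUSG00000098178 (0.017), edgeR (0.057), edgeR with the replicate block (0.0012) and DESeq2 (0.048). Leaving out 1 library gave log2 fold changes of -1.84 to 0.18 for ENSMUSG00000098178 (above 0 without WT 2), -0.29 to 0.29 for Malat1, -0.059 to 1.05 for Neat1 (below 0 without CharmeKO 3), -0.43 to 0.086 for Gas5 (above 0 without WT 3), -0.82 to -0.092 for Kcnq1ot1 and -1.52 to 0.56 for Miat (above 0 without WT 3 or CharmeKO 2). The log2 ratio of Malat1 to Neat1 differed by -1.26 to 0.0424, and the share of ENSMUSG00000098178 by -1.28 to -0.0196 percentage points. Kcnq1ot1 kept its direction in 18 of 18 alternatives. Paired by number, the ratio gave p = 0.5 in an exact sign-flip permutation test of 3 pairs, which cannot go below 0.25. Depth limits Miat, whose 0 to 14 reads leave the direction unknown.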
